A study of Mus musculus with 12 samples.

Results

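The lysyl oxidase family of the mouse was described here across infarcted and sham-operated left ventricles. Its members Lox, Loxl1, Loxl2, Loxl3 and Loxl4 were matched by gene symbol in the deposited table, and all 5 were found among its 18050 genes. Each of the 5 also passed the filter on low counts, which left 13654 genes for testing over 12 libraries. Transcripts of all 5 genes were more abundant after infarction, by log2 fold changes over 12 libraries from 2.10 for Loxl4 to 6.78 for Lox.

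Lysyl oxidases are secreted, copper-dependent amine oxidases. They convert lysine and hydroxylysine side chains of collagens and elastin into reactive aldehydes, which then condense into the covalent crosslinks that make these fibres insoluble. In the heart they are known mainly as products of fibroblasts and smooth muscle cells, and crosslinked collagen is part of the scar that replaces lost muscle after infarction. Lox and Loxl1 carry a propeptide that is removed outside the cell. Loxl2, Loxl3 and Loxl4 have scavenger receptor cysteine-rich domains in its place, and all 5 share the catalytic domain.

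Left ventricles were taken from wild type mice on day 7 after myocardial infarction (MI, 6 libraries) or a sham operation (6 libraries), and their polyadenylated RNA was sequenced. Both groups are wild type, and the labels used here give no sex, age or strain and do not say whether libraries of a group came from separate animals. P-values therefore measure the spread between libraries, which may be technical. By the submitters' processing notes, the libraries fall into a set of replicates 1 and 2 of each group and a set of replicates 3 to 6 of each group.

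Library totals were 18546662 and 18602226 expected counts in MI replicates 1 and 2 and from 14168412 to 14410783 in MI replicates 3 to 6. They were 15541334 and 16066681 in sham replicates 1 and 2 and from 9140353 to 9750764 in sham replicates 3 to 6. Replicates 3 to 6 lay far closer together than replicates 1 and 2: the biological coefficient of variation was 0.0208 against 0.199 in MI and 0.0293 against 0.112 in sham. Each gene was therefore tested over all 12 libraries, and again with replicates 3 to 6 of a group summed and counted once (3 against 3). "Rose" and "fell" below mean an adjusted p under 0.05 with the same sign in both tests (edgeR's quasi-likelihood test, Benjamini-Hochberg adjustment over all genes).

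The groups also differed in transcripts that mark cell types. All 8 cardiomyocyte markers tested fell. Their summed level was 6092 to 9918 CPM (counts scaled to a common library total) in MI replicates 1 and 2 and 29737 to 30312 CPM in MI replicates 3 to 6, against 101001 to 101482 CPM in sham replicates 1 and 2 and 93868 to 96247 CPM in sham replicates 3 to 6. Of 8 fibroblast markers 6 rose and 1 fell, and of 6 activated fibroblast markers 5 rose and none fell. The activated fibroblast markers summed to 4666 to 5129 and 4587 to 4686 CPM in the MI sets, against 585 to 622 and 239 to 245 CPM in the sham sets. Of 6 macrophage markers 5 rose and 1 fell. Of 6 smooth muscle and pericyte markers 3 rose and 3 fell. These summed to 745 to 816 and 1078 to 1115 CPM in the MI sets, against 1002 and 1514 to 1608 CPM in the sham sets. Of 6 endothelial markers none rose and 1 fell. In bulk tissue, more cells of a type and more RNA per cell cannot be told apart, and the part of cell makeup in the family's values was not tested. Markers of lung epithelium other than Hopx summed to 168 to 172.5 CPM in MI replicates 3 to 6, and to 2.64 to 2.79 CPM in MI replicates 1 and 2. In sham they summed to 0.228 to 0.296 CPM in replicates 1 and 2 and 0.598 to 1.33 CPM in replicates 3 to 6. Sftpa1 and Sftpd were at 0 in MI replicates 1 and 2 and in all sham libraries. Scgb1a1 was at most 0.182 CPM in any library. Hopx went the other way and fell. It stood at 23.8 to 30.1 CPM in MI replicates 1 and 2 and 83.9 to 86.8 CPM in MI replicates 3 to 6. In sham, Hopx stood at 353 to 420 CPM in replicates 1 and 2 and 447 to 505 CPM in replicates 3 to 6. Of the beta-globin counts, Hbb-bs and Hbb-bt, the adult genes of one of the beta-globin haplotypes of laboratory mice, held 0.115% in MI replicates 3 to 6, against 99.95% in sham replicates 3 to 6. For replicates 1 and 2 this share cannot be read, because counts of Hbb-b1 and Hbb-b2, the other beta-globin genes, were missing there. Only 5 of the 7 red cell genes named had counts in all 12 libraries. Within replicates 3 to 6, the operation and a difference in genetic background, which the labels do not mention, cannot be told apart.

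The catalytic copper is held by a short, histidine-rich stretch that the members share. Its coding sequence is shown for 4 genes, Loxl1, Loxl2, Loxl3 and Loxl4. The Lox sequence is not shown or compared here. The 33 bases below, in coding orientation, were read from the annotated GRCm38 transcripts, with the 4 histidine codons in capitals. The stretch was found by searching for a pattern that fixes 8 of its 11 amino acids, the histidines among them. Part of the likeness given below was therefore set by the search. In each of the 4 genes an intron falls after base 23, so the genomic interval given for it is longer than the stretch.
Loxl1, chr9:58293720-58294381, minus strand, exons 3 and 4 of 7: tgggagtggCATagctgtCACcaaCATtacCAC
Loxl2, chr14:69682316-69689037, plus strand, exons 10 and 11 of 14: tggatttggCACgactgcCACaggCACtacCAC
Loxl3, chr6:83049995-83050125, plus strand, exons 10 and 11 of 14: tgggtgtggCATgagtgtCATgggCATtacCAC
Loxl4, chr19:42598807-42599899, minus strand, exons 11 and 12 of 15: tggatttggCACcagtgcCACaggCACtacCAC

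Loxl2 and Loxl4 were identical at 31 of these 33 bases (93.9%). Loxl3 matched each of Loxl1, Loxl2 and Loxl4 at 75.8% of the bases, and Loxl1 matched Loxl2 at 66.7% and Loxl4 at 63.6%. Even so, no run of 50 bases was shared between transcripts of any 2 members.

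Over all genes, 28.1% rose and 29.8% fell by both tests, and the median log2 fold change over 12 libraries was 0.01. All 5 lysyl oxidases rose. By the 12-library test alone 37.9% of 13654 genes were called higher and 38.0% lower, that is 5180 and 5186 genes. Scaling to library size alone gave 7779 and 3208 genes and moved the median to 0.42, and all 5 members were still called higher. The counted-once test alone called 28.1% of genes higher and 29.5% lower. In each member every MI library lay above every sham library, which held for 21.2% of all genes over 12 libraries, 44.7% within replicates 1 and 2 and 36.9% within replicates 3 to 6. The exact two-sided permutation test over 6 against 6 libraries gave p = 0.00216 for each member, the smallest value it allows. Counted once, 3 against 3, the smallest value allowed is 0.1, and each member reached it.

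**Figure D1:**
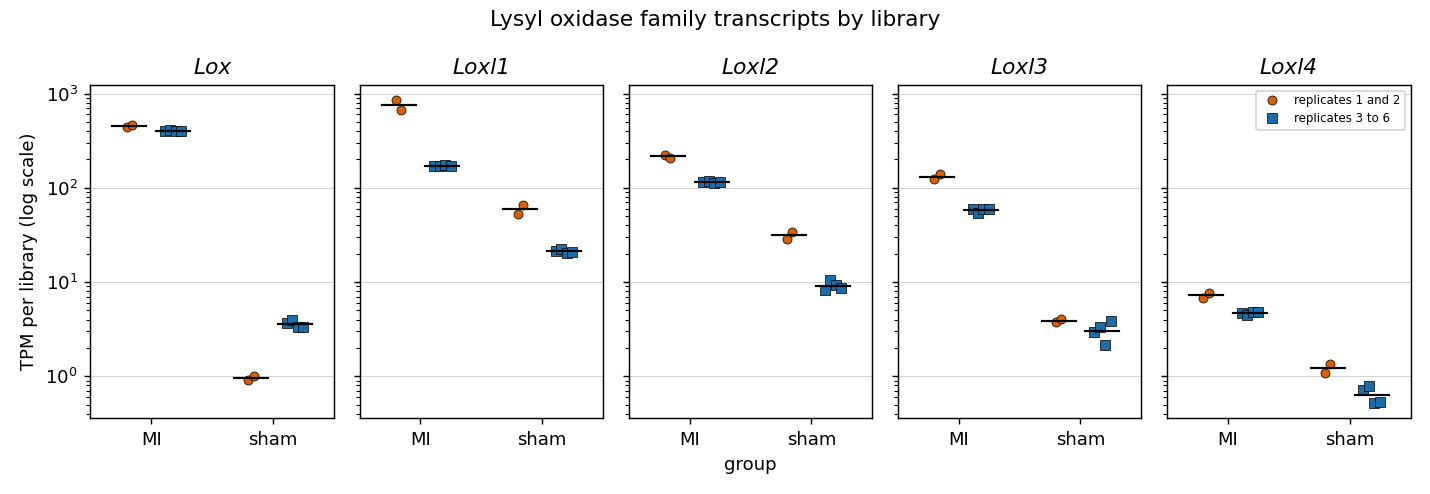
TPM (transcript abundance scaled for length and library total, log scale) of each lysyl oxidase in MI libraries (left) and sham libraries (right), with circles for replicates 1 and 2, squares for replicates 3 to 6 and a bar at the mean of each set. MI libraries lie above sham libraries in all 5 panels, and the sham libraries of Lox are the only ones in which replicates 1 and 2 lie below replicates 3 to 6.

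Lox encodes the founding enzyme of the family, which crosslinks fibrillar collagen and elastin and without which mice die around birth from ruptured vessels. The gene (ID 16948) lies on the minus strand of chromosome 18, from 52516060 to 52529867 in GRCm38. Lox stood at 908 and 902 CPM in MI replicates 1 and 2 and at 902, 938, 912 and 904 CPM in MI replicates 3 to 6. In sham it stood at 2.74 and 3.26 CPM in replicates 1 and 2 and at 13.1, 13.9, 12.2 and 11.9 CPM in replicates 3 to 6. The MI libraries were thus close to one another in both sets, and the sham libraries were low in both sets but about 4-fold apart. In counts, sham replicates 1 and 2 held 36 and 44 Lox reads, so the low end of the contrast rests on few reads.

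The log2 fold change of Lox was 6.78 ± 0.35 (SE) over 12 libraries (adjusted p = 8.01e-09, edgeR's quasi-likelihood test with Benjamini-Hochberg adjustment). With replicates 3 to 6 counted once it was 7.48 ± 0.58 (adjusted p = 0.000910 by the same test). In TPM, the MI mean was 470-fold above the sham mean in replicates 1 and 2 and 112-fold above it in replicates 3 to 6. TPM carry no scaling between libraries, and the TMM-scaled fits within the sets gave smaller folds, with log2 values of 8.21 for the first 2 replicates, and 6.21 for the other 4. Only 2.60% of genes reached 8-fold in the 12-library fit, and Lox ranked 19 of 13654 genes by log2 fold change.

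Loxl1, whose loss in mice leaves elastic fibres poorly maintained, lies on the minus strand of chromosome 9 (ID 16949, 58287723 to 58313212). It was the most abundant member in sham hearts and the one whose MI libraries differed most between the sets. Its level was 1261 and 954 CPM in MI replicates 1 and 2 and 286, 284, 291 and 289 CPM in MI replicates 3 to 6. In sham it was 119 and 154 CPM in replicates 1 and 2 and 55.4, 59.1, 54.3 and 54.2 CPM in replicates 3 to 6. Within each set the groups were well apart, but MI replicates 3 to 6 were less than 3-fold above the sham libraries of the other set. The log2 fold change was 2.59 ± 0.13 (SE) over 12 libraries (adjusted p = 6.64e-09) and 2.78 ± 0.27 with replicates 3 to 6 counted once (adjusted p = 0.00126), by edgeR's quasi-likelihood test with Benjamini-Hochberg adjustment.

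Loxl2 encodes an enzyme that crosslinks collagen IV of basement membranes and fibrillar collagens. Its gene is on the plus strand of chromosome 14 (ID 94352, 69608692 to 69695834). It had 525 and 469 CPM in MI replicates 1 and 2 and 300.0, 308, 295 and 304 CPM in MI replicates 3 to 6. Sham replicates 1 and 2 had 103 and 127 CPM, and sham replicates 3 to 6 had 33.8, 42.6, 39.3 and 36.0 CPM. No MI library came within a factor of 2 of a sham library. The log2 fold change was 2.69 ± 0.15 (SE) over 12 libraries (adjusted p = 1.57e-08) and 2.39 ± 0.25 with replicates 3 to 6 counted once (adjusted p = 0.00141), by edgeR's quasi-likelihood test with Benjamini-Hochberg adjustment. Of the annotated Loxl2 transcript sequence, 45% of the 50-base words also occur in transcripts of other genes, so its counts depend on how the counting tool shared such reads.

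Loxl3 encodes a collagen crosslinking enzyme that mice need for the palate and spine to form. It lies on the plus strand of chromosome 6 (ID 16950, 83034205 to 83052566). It reached 225 and 239 CPM in MI replicates 1 and 2 and 113, 104, 112 and 115 CPM in MI replicates 3 to 6. In sham it stood at 10.4 and 11.5 CPM in replicates 1 and 2 and at 9.13, 8.95, 6.33 and 11.2 CPM in replicates 3 to 6. Here the sham libraries of both sets overlapped, and the MI libraries did not. The log2 fold change was 3.92 ± 0.16 (SE) over 12 libraries (adjusted p = 1.19e-09) and 4.13 ± 0.22 counted once (adjusted p = 0.000560), by edgeR's quasi-likelihood test with Benjamini-Hochberg adjustment. After Lox it had the largest fold of the family. Exons of Htra2, which encodes a mitochondrial protease and runs the other way, cover 11.6% of the Loxl3 exon bases. Since strandedness is not stated, reads of the shared bases cannot be told apart. Htra2 itself was not called, with 53.7 ± 3.45 and 28.5 ± 2.10 CPM in the MI sets, against 46.7 ± 1.03 and 27.4 ± 1.97 CPM in the sham sets (SD, n = 2 and 4).

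Loxl4, the least abundant of the 5 by TPM in every MI library, also acts on collagen and lies on the minus strand of chromosome 19 (ID 67573, 42592279 to 42612806). It stood at 16.7 and 17.7 CPM in MI replicates 1 and 2 and at 12.9, 12.2, 13.1 and 13.1 CPM in MI replicates 3 to 6. Sham replicates 1 and 2 had 4.03 and 5.19 CPM, and sham replicates 3 to 6 had 3.04, 3.36, 2.27 and 2.29 CPM. The groups did not overlap even at this low level. The log2 fold change was 2.10 ± 0.12 (SE) over 12 libraries (adjusted p = 1.60e-08) and 1.99 ± 0.19 counted once (adjusted p = 0.00129), by edgeR's quasi-likelihood test with Benjamini-Hochberg adjustment. It was the smallest fold of the family in the 12-library fit.

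Within replicates 1 and 2 alone, 34.1% of genes were called higher and 32.9% lower. All 5 members were called higher there, with log2 fold changes of 8.21 for Lox, 3.0 for Loxl1, 2.10 for Loxl2, 4.39 for Loxl3 and 1.88 for Loxl4. Within replicates 3 to 6 alone, 42.2% of genes were called higher and 39.5% lower. All 5 members were again called higher, with log2 fold changes of 6.21 for Lox, 2.42 for Loxl1, 3.04 for Loxl2, 3.69 for Loxl3 and 2.28 for Loxl4. The shift in beta-globin genes and the lung markers other than Hopx, whose sum was high in MI replicates 3 to 6 only, lie within this contrast. Their part in these values was not tested. The sets ordered the members differently. Lox and Loxl3 led in both, but Loxl1 stood above Loxl2 in replicates 1 and 2 and below it in replicates 3 to 6.

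**Figure D2:**
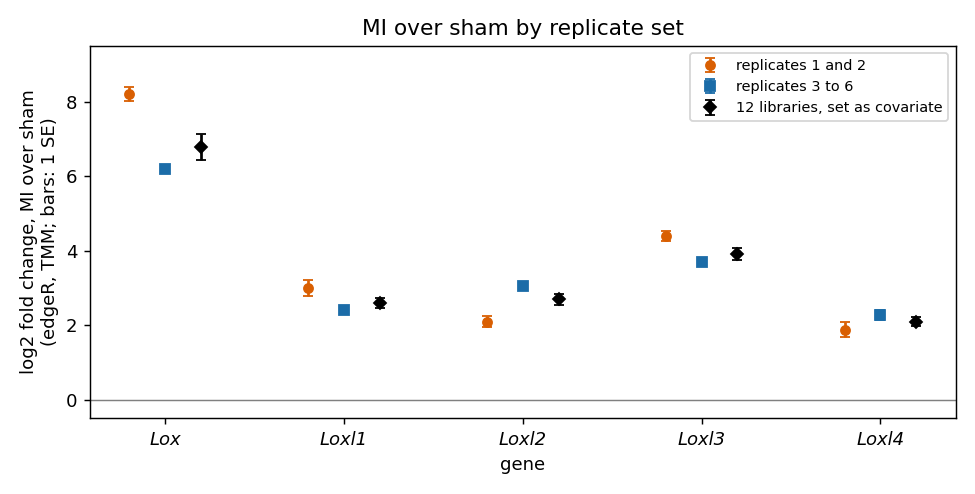
Log2 fold change of MI over sham (vertical axis) for each lysyl oxidase, in replicates 1 and 2 (circles), replicates 3 to 6 (squares) and all 12 libraries (diamonds), with bars of 1 SE from the edgeR fit. The estimates of Lox are farthest apart, at 8.21 and 6.21, and Loxl2 and Loxl4 are higher in replicates 3 to 6 where the other 3 are lower.

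The difference between the sets was tested as an interaction, given as replicates 3 to 6 minus replicates 1 and 2. By both tests, this difference was called positive for 6.67% of all genes and negative for 3.86%. Lox was the only member called, at -2.07 ± 0.12 (SE; adjusted p = 6.98e-09 over 12 libraries and 0.0154 counted once, edgeR's quasi-likelihood test with Benjamini-Hochberg adjustment). Its call was lost without sham replicate 1 or without sham replicate 2, where the counted-once test gave adjusted p = 0.112 and 0.111, with differences over the remaining 11 libraries of -1.95 and -2.20. Each of these fits leaves 1 sham library in that set. The 12-library test alone called 28.2% of genes positive and 26.8% negative, and there it also called Loxl1 (-0.65), Loxl2 (0.88) and Loxl3 (-0.77). Counted once, edgeR's quasi-likelihood test gave these 3 adjusted p-values of 0.242, 0.0922 and 0.0695. Without MI replicate 1, Loxl2 and Loxl3 were called by both tests. Loxl4 differed by 0.33 (adjusted p = 0.188 over 12 libraries and 0.592 counted once, the same edgeR test). For Lox the sets differed in the sham libraries: its TPM in sham replicates 1 and 2 was 0.267 of that in sham replicates 3 to 6, and the MI ratio of the sets was 1.12. For Loxl1 the ratio was 4.46 in MI and 2.81 in sham. Animals, library preparation and the authors' processing cannot be told apart between the sets.

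Levels can be compared between members on the TPM scale, which corrects for transcript length. In MI replicates 1 and 2, Loxl1 led with 853 and 676 TPM, ahead of Lox with 442 and 461 TPM. In MI replicates 3 to 6 this order was turned round, with Lox at 398, 413, 403 and 397 TPM and Loxl1 at 171, 169, 174 and 172 TPM. Loxl2, Loxl3 and Loxl4 followed in this order in all 6 MI libraries. Loxl2 had 225 and 210 TPM in replicates 1 and 2 and 113 to 117 TPM in replicates 3 to 6. Loxl3 had 124 and 139 TPM and 54.5 to 60.1 TPM, and Loxl4 had 6.86 and 7.61 TPM and 4.46 to 4.8 TPM. These neighbours in the order did not overlap within a set.

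In sham, Loxl1 led both sets, with 53.3 and 65.7 TPM in replicates 1 and 2 and 20.4 to 22.6 TPM in replicates 3 to 6. Loxl2 came next, at 28.9 and 34.3 TPM and at 8.20 to 10.5 TPM. Lox was the least abundant member in sham replicates 1 and 2, at 0.91 and 1.01 TPM, just under Loxl4 at 1.08 and 1.36 TPM. In sham replicates 3 to 6 Lox, at 3.34 to 3.97 TPM, overlapped Loxl3, at 2.14 to 3.82 TPM, and both lay above Loxl4, at 0.52 to 0.79 TPM. The place of Lox among the 5 therefore moved the most: last, or beside Loxl3, in sham, and at the head or next to it in MI.

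The 5 genes together summed to 1572 ± 112 TPM in MI replicates 1 and 2 (SD, n = 2) and 752 ± 4.99 TPM in MI replicates 3 to 6 (SD, n = 4). In sham they summed to 97.2 ± 13 TPM in replicates 1 and 2 (SD, n = 2) and 37.7 ± 2.41 TPM in replicates 3 to 6 (SD, n = 4). Lox held 26.8% and 30.9% of this sum in MI replicates 1 and 2 and 53.0% to 54.5% in MI replicates 3 to 6. Its share in sham was 1.03% and 0.950% in replicates 1 and 2 and 9.02% to 10.1% in replicates 3 to 6. Lox was thus a minor part of the pool in sham hearts and a large one in MI hearts of both sets. Loxl2 held a smaller share in MI than in sham: 13.6% and 14% in MI replicates 1 and 2 and 14.9% to 15.4% in MI replicates 3 to 6, against 32.9% and 32.2% in sham replicates 1 and 2 and 22.4% to 26.2% in sham replicates 3 to 6. Loxl1 held 51.7% and 45.3% in MI replicates 1 and 2 and 22.3% to 23.1% in MI replicates 3 to 6, against 60.6% and 61.8% in sham replicates 1 and 2 and 55.0% to 57.6% in sham replicates 3 to 6. No test was made of these shares, which add up to 100% in each library and so cannot move independently.

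**Figure D3:**
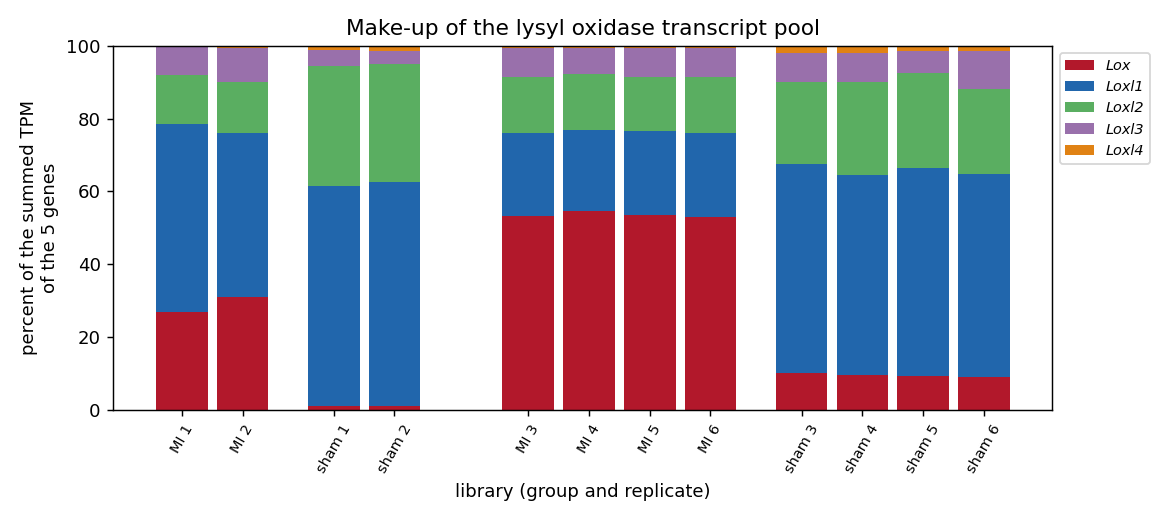
Percent of the summed TPM of the 5 lysyl oxidases (vertical axis) held by each gene, 1 bar per library, MI left of sham within replicates 1 and 2 (left) and replicates 3 to 6 (right). The Lox segment reaches 53.0% to 54.5% in MI replicates 3 to 6 and is near 1% in sham replicates 1 and 2.

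Set against Loxl1 in the same library, which needs no scaling between libraries, Lox stood at 0.518 and 0.682 TPM per TPM of Loxl1 in MI replicates 1 and 2 and at 2.31 to 2.44 in MI replicates 3 to 6. The same ratio was 0.0171 and 0.0154 in sham replicates 1 and 2 and 0.162 to 0.176 in sham replicates 3 to 6. Lox therefore gained on Loxl1 in MI in both sets. Set against its main substrates, the family as a whole was lower in MI than in sham. Per 1000 TPM of Col1a1, Col1a2 and Col3a1, which encode the chains of collagens I and III, the 5 enzymes summed to 60.5 and 68.9 TPM in MI replicates 1 and 2 and 100.3 to 101.7 TPM in MI replicates 3 to 6. In sham they summed to 155 and 170.3 TPM in replicates 1 and 2 and to 233 to 267 TPM in replicates 3 to 6. Lox was the exception, at 18.7 TPM (mean of MI replicates 1 and 2) and 54.0 TPM (mean of MI replicates 3 to 6) per 1000 collagen TPM. Its sham means were 1.61 TPM in replicates 1 and 2 and 23.2 TPM in replicates 3 to 6. The other 4 had lower means in MI than in sham in both sets, as for Loxl1, with 31.2 and 23.0 TPM in the MI sets, against 99.7 and 137 TPM in the sham sets. For Loxl3 the groups were close in replicates 1 and 2, with 4.56 and 6.40 TPM per 1000 collagen TPM in MI, against 6.66 and 6.44 TPM in sham. In replicates 3 to 6 they were well apart, with 7.30 to 8.10 TPM in MI, against 13.96 to 24.10 TPM in sham.

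**Figure D4:**
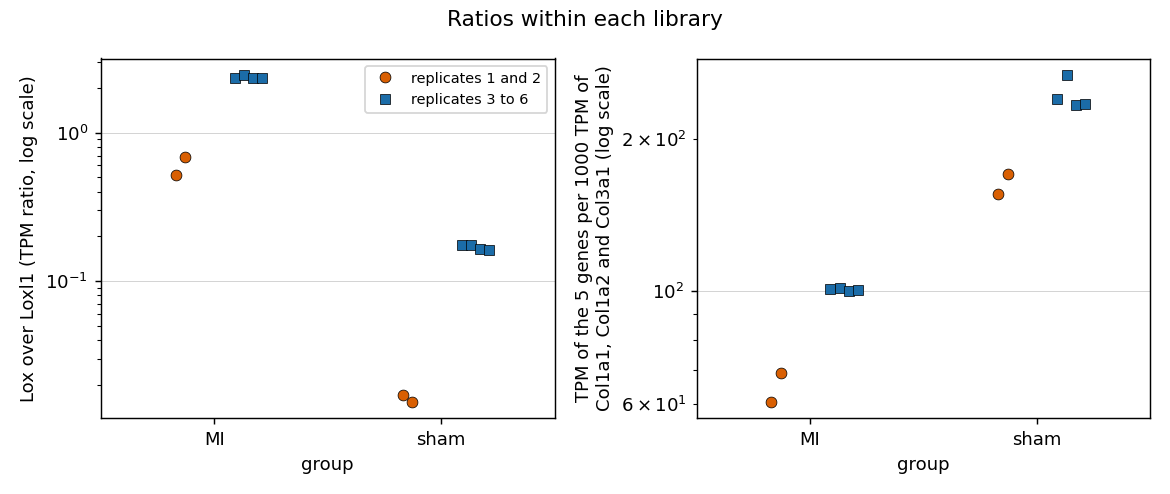
Ratio of Lox to Loxl1 TPM (left panel, log scale) and TPM of the 5 lysyl oxidases per 1000 TPM of Col1a1, Col1a2 and Col3a1 (right panel, log scale), per library, with MI left of sham, circles for replicates 1 and 2 and squares for replicates 3 to 6. MI lies above sham in the left panel and below it in the right panel.

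Genes that act with the enzymes were read from 8 lists of 83 genes, of which 79 were tested. Across the lists 59 genes rose and 6 fell, beside 28.1% and 29.8% of all genes. Of 11 fibrillar collagen genes, the main substrates, all rose, with a median log2 fold change of 4.68. Examples are Col5a2 at 4.61 ± 0.09 (SE) and Col11a1 at 10.06 ± 0.22, both fibril-nucleating collagens. Among 11 elastic fibre genes 10 rose (median 2.75), with Fbn1, the main microfibril protein, at 3.40 ± 0.07 and Mfap5 at 2.75 ± 0.10. Ltbp4, which guides elastin assembly, stood at -0.07 and was not called. Cardiomyocyte markers were lower and fibroblast markers higher in the same libraries, and their part in these counts was not tested. Those marker lists and the lists read here share Dcn, Lum, Col1a1 and Postn.

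In the list of propeptide processing and lysyl oxidase activation, which also holds procollagen processing genes, 9 of 11 rose (median 2.11). Bmp1, the protease that releases the Lox propeptide, was at 2.30 ± 0.20 (SE), and Postn, a matricellular protein that binds Bmp1, was at 5.28 ± 0.14. Adamts2, a procollagen protease, was at 3.22 ± 0.09. Tll2, a relative of Bmp1, fell by 2.98 on the log2 scale, at under 4 CPM in each set's mean, and Pcolce2 was not called at 0.23 (called higher when scaled to library size alone). Genes of copper delivery lay mostly near the median of all genes: of 8 tested, 2 rose and 1 fell (median 0.12). Atp7a, the pump that loads copper into secreted enzymes, rose by 1.61 ± 0.14 (SE), and Steap3, a metal reductase, by 0.42 ± 0.06. Commd1, a regulator of copper transporters, fell by 1.03. The copper importer Slc31a1 (0.14), Slc31a2 (0.07), the chaperones Atox1 (0.12) and Ccs (-0.45) and the reductase Steap4 (0.12) were not called. Scaled to library size alone, 5 of the 8 were called higher and 1 lower, and with DESeq2 size factors Ccs was called lower as well.

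Lysyl hydroxylation makes the hydroxylysines from which stable crosslinks form, and 7 of 9 genes of this list rose (median 1.54). Fkbp10, a chaperone of lysyl hydroxylase, was at 2.40 ± 0.08 (SE), Serpinh1, the collagen chaperone, at 2.02 ± 0.07, and Plod2, which hydroxylates the telopeptide lysines, at 2.05 ± 0.12. Plod1, which acts on the helix, was not called at 0.42, and its log2 fold changes were of opposite sign in the sets, -0.35 within replicates 1 and 2, but 0.84 within replicates 3 to 6. Colgalt2, a collagen galactosyltransferase, fell by 0.80 on the log2 scale. The list of other crosslinking and amine oxidase enzymes gave 4 of 7 that rose (median 1.03). Among them were peroxidasin (Pxdn) at 1.49 ± 0.10 and Aoc3, a copper amine oxidase, at 1.31 ± 0.11. The transglutaminase Tgm2 (-0.04) and Aoc2 (0.66) were not called, and F13a1, the factor XIII subunit, fell by 1.56. Scaled to library size alone, F13a1 and Colgalt2 kept their sign but lost their calls, and Aoc2 was called higher.

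Of 8 collagen-binding proteoglycan genes 7 rose (median 1.71), with Fmod, which binds Lox and directs it to collagen, at 4.78 ± 0.18 (SE) and Bgn at 2.95 ± 0.15. Dcn was not called at 0.47 but was when scaled to library size alone. Among 14 known regulators of lysyl oxidase transcription 9 rose (median 1.21), including Tgfb3 at 2.96 ± 0.12 and Ccn2, a target of growth factor and stretch signalling, at 3.51 ± 0.08. The transcription factors Smad3 (0.18), Wwtr1 (0.30) and Irf1 (0.38) were not called. Scaled to library size alone they stood at 0.59, 0.71 and 0.79 and were called higher, which made 12 of the 14 regulators. Tead1 (-0.62) and Yap1 (-0.38) fell, but neither was called when scaled to library size alone, where Yap1 stood at 0.03.

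**Figure D5:**
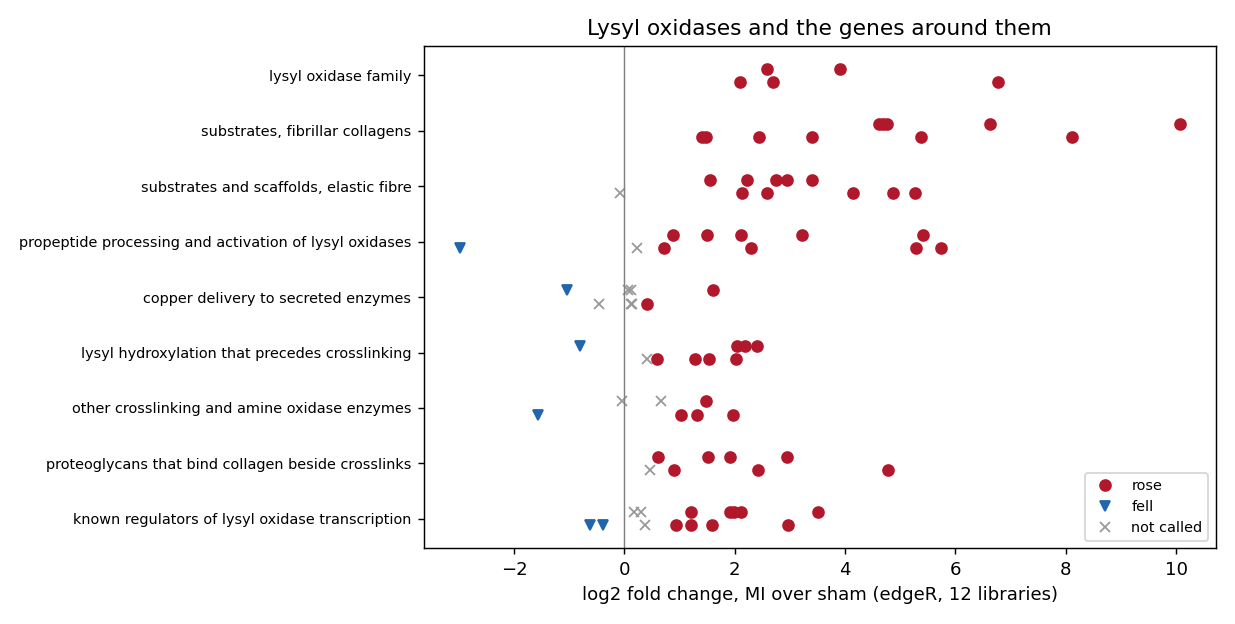
Log2 fold change of MI over sham (horizontal axis, 12-library edgeR fit) for the lysyl oxidases (top row) and for each gene tested in 8 lists of genes that act with them. Dots mark genes that rose, triangles genes that fell and crosses genes not called; fibrillar collagens all lie to the right of 0 and copper delivery genes lie around 0.

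The genes whose pattern over the 12 libraries was most like each member's were found among 9914 or 9915 genes with at least 10 CPM on average, by the root mean square difference of centred log2 CPM. For Lox these were Col12a1 (0.54), Gpnmb (0.62) and Mmp12 (0.64), where the median gene lay at 3.54. They are a fibril-associated collagen, a glycoprotein of macrophages and a macrophage elastase, and their log2 fold changes were 7.29, 7.25 and 6.48. No gene was as near to Lox as the nearest genes were to the other members. Loxl1 was nearest to Cercam (0.14), Actn1 (0.21) and Mrc2 (0.21), Loxl2 to C1qtnf5 (0.21), Irf7 (0.24) and Cd276 (0.25), and Loxl3 to Ism1 (0.22), Fstl1 (0.27) and Ccn2 (0.31). Loxl4 was nearest to Serpinh1 (0.19), Ripk3 (0.20) and Aldh18a1 (0.20). None of Lox, Loxl1, Loxl2 and Loxl3 was among the 3 nearest genes of another member. Loxl4 averaged under 10 CPM over the 12 libraries, so it was not a candidate and could not appear there.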

How the data were processed

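Left ventricular RNA of 6 MI and 6 sham libraries was extracted with Magzol and enriched with oligo(dT) beads, per the labels' protocols. The submitters' processing notes name GRCm38 for all libraries, and Bowtie2, RSEM and DESeq2, without versions, for replicates 3 to 6 only; strandedness and the tools of replicates 1 and 2 are not given in the sources used here. The deposited table gives expected counts per gene (unscaled, fractional), the authors' TPM, in which transcripts of each library sum to a fixed total, and the authors' FPKM, corrected for length and library total. In another deposited table, FPKM of replicates 1 and 2 are given again, and its 20 member values differed from those of the first by -3.75% to -0.650%. Of 18050 genes, 425 are blank in replicates 1 and 2.

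Expected counts were rounded and fitted with edgeR 4.0.16 (quasi-likelihood, TMM, filterByExpr) in R 4.3.3 with the replicate set as covariate, over all genes, with Benjamini-Hochberg adjustment and a threshold of 0.05. The fit was repeated with replicates 3 to 6 of each group summed (13970 genes tested), within each set, and with an interaction of set and group. A gene is called only where the 12-library and counted-once tests both pass with the same sign (13592 genes in both). Levels are TMM-scaled CPM (across libraries) or TPM (between genes). limma 3.58.1 and DESeq2 1.42.0 served as alternatives, and scipy 1.17.1 gave the exact permutation tests. The procedure was also run on simulated libraries drawn independently of one another, which cannot show whether libraries of a group came from separate animals. Any 2 libraries of replicates 3 to 6 of a group differed at p under 0.05 (chi-square test of counts) in 7.99% to 13.6% of genes, against 50.6% in MI and 35.2% in sham for replicates 1 and 2.

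The members, the lists, the counted-once test and the rule for named genes (the 5 members, the 3 most alike genes of each, and from each list the genes with the smallest adjusted p and those not called or moving against the majority) were chosen with earlier results of these data known. Bmp1, Plod2 and the ratios to Loxl1 and to collagens were added after their values were seen. Marker genes are given by list. Positions are from RefSeq GRCm38.p6, and sequences and overlaps from GENCODE vM21.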

Additional observations from a re-analysis of the deposited data

Results flagged for a closer look

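Lox in MI replicate 4 stood apart from the other MI libraries, at 938 CPM, where the other 5 lay between 902 and 912 CPM. The 20 groups of values screened were, for each gene, the 6 libraries of a group and replicates 3 to 6 among them, so they overlap. The cutoff on the gap was higher for 4 libraries than for 6. Lox in the 6 MI libraries was the only group past its cutoff, and chance gives about 1 in 20 for libraries at a common level. That rate does not hold for groups of 6 whose sets differ in level. Loxl1 in MI, for example, lay at 954 to 1261 CPM in replicates 1 and 2 and 284 to 291 CPM in replicates 3 to 6. Within MI replicates 3 to 6 alone Lox was not flagged. The MI effect on Lox differed between the replicate sets, with a log2 fold change lower by 2.07 in replicates 3 to 6 (a difference of -2.07), and its sham libraries stood at 2.74 to 3.26 CPM in replicates 1 and 2 and 11.9 to 13.9 CPM in replicates 3 to 6.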

How the results depend on the processing

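All 5 members were called higher in each of the 22 alternatives of the 12-library test, the 16 of the counted-once test, and the 9 and 13 within replicates 1 and 2 and replicates 3 to 6. Over 12 libraries the log2 fold changes ranged from 6.44 to 7.19 for Lox, 2.48 to 3.19 for Loxl1, 2.53 to 3.26 for Loxl2, 3.78 to 4.33 for Loxl3 and 1.39 to 2.51 for Loxl4. With the replicate number as a block, again 5 members were called, and Lox stood at 6.80; same-numbered libraries did not deviate together (correlations from -0.0479 to 0.0640), so the numbers were not read as pairs. The number of members whose effect differed between sets was 1, and 2 with DESeq2's interaction test (Loxl2 at 0.94 in addition), and ranged from 0 to 3 without single replicates. Counts of genes moved more: over 12 libraries limma called 8520 higher on log2(FPKM + 1), 8617 higher and 3457 lower on log2(FPKM + 0.1), 10025 and 2500 on log2(TPM + 1), and 3083 lower with a filter at a mean of 1 FPKM. Scaled to library size alone, the counted-once test called 6423 higher and 2533 lower, against 3932 and 4126, and replicates 3 to 6 alone gave 3598 lower, against 5453. Without sham replicate 1 or 2 the counted-once test called 2302 or 2528 genes higher. Among the listed genes, 64 were called higher and 7 lower by the 12-library test alone. Division of counts by gene length was not run. Few reads limit Lox, Loxl3 and Loxl4 in sham, where Loxl3 had 52.6 to 92.6 expected counts in replicates 3 to 6.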
